A study of Mus musculus with 12 samples.

Results

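The E proteins and their Id inhibitors were followed through 4 dendritic cell populations of mouse bone marrow. The genes were chosen by name: Tcf4, Tcf3 and Tcf12, which encode the E proteins E2-2, E2A and HEB, and Id2 and Id3, which encode inhibitors of them. All 5 were found among the 21754 genes of the deposited table. Bulk RNA-sequencing (SCRB-seq) gave 12 libraries, 3 per population, from C57BL/6 mice, an inbred wild-type strain whose age the labels do not give. SCRB-seq reads mainly the 3′ ends of polyadenylated transcripts, so that the isoforms of a gene, such as those of Tcf4 and Tcf3, are not told apart. All populations were sorted as CD11c+ cells after depletion of cells carrying lineage antigens, among them CD3, Ly6G, NK1.1 and Ter119. Pre-cDCs were Siglec-H-negative precursors of conventional dendritic cells (cDCs). The lo-lo and lo-hi cells were Siglec-H+ CCR9lo precursors with low or high surface B220, and pDCs were Siglec-H+ CCR9hi B220hi plasmacytoid dendritic cells. The study speaks of 3 individual mice for these libraries and elsewhere of bone marrow pooled before sorting, so p-values measure the spread between these libraries.

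Libraries were given to populations by their well and not by the deposited labels, which disagree for 8 of the 12 wells. In each of the 12 samples of the study's source data for 28 transcription factors, exactly 1 well ranked all 378 pairs of factors in the same order, and the next best well differed in at least 7 pairs. Tcf4 and Id2 are among these factors. Without them, the same wells matched all 325 remaining pairs, so that the grouping used here does not rest on any of the 5 genes. Grouped by the deposited labels, edgeR called 0 of 15293 genes in every comparison of populations, with 138 to 344 genes at an unadjusted p under 0.05, and none of the values below were called. The number 1, 2 or 3 of a library is that of the matched source-data sample.

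The libraries held 1801463 to 5995971 counts (median 3087455), so that the floor of 3 counts came to 0.5 to 1.67 CPM, the counts scaled to a library total of 1000000, before the scaling by TMM described below. The 4 libraries numbered 3 stood apart in all populations. They held Ddx3y, a gene of the Y chromosome, at 19.6 to 62.9 CPM, where the other 8 had 0.17 to 3.62 CPM. Xist, the RNA of the inactive X chromosome, was at 26.6 to 58.4 CPM in them and at 218 to 596 CPM in the others. Results are therefore also given without these 4 libraries. The summed level of 6 pDC markers, Siglech and Ccr9 among them, was 1152 to 1707 CPM in pre-cDCs and 7229 to 7707 CPM in pDCs. It was 3777 to 4055 CPM in lo-lo and 6268 to 6709 CPM in lo-hi cells. The sum of 5 pre-cDC markers, Zbtb46 and Csf1r among them, was 340 to 412 CPM in pre-cDCs and 166 to 192 CPM in pDCs. It was 358 to 410 CPM in lo-lo and 215 to 291 CPM in lo-hi cells. This sum thus did not set pre-cDCs apart from lo-lo cells. Markers of other blood cells were also present. The 7 neutrophil markers summed to 4351 to 11363 CPM in pre-cDCs, to 5278 to 17584 CPM in lo-lo cells, to 9812 to 20531 CPM in lo-hi cells and to 3222 to 6561 CPM in pDCs. All lo-hi libraries lay above all pDC libraries. The 6 erythroid markers summed to 4684 to 18421 CPM, to 5812 to 8222 CPM, to 9133 to 11605 CPM and to 6763 to 14215 CPM in the same order. The 5 T cell markers stayed at or below 15.2 CPM in sum. The part of such cells or of their free RNA in the results was not tested.

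E proteins are transcription factors with a basic helix-loop-helix (bHLH) domain. They bind DNA as dimers at the E-box, whose core is CANNTG. Id proteins carry the helix-loop-helix but lack the basic region, so that a dimer of an E protein with an Id protein does not bind DNA. E2-2 is known as the factor that pDCs need for their development and maintenance, and Id2 is known to be high in cDCs. Tcf4 is not the Wnt effector Tcf7l2, which is often called TCF4 as well.

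On the GRCm38 build, with the gene positions of GENCODE vM21, Tcf12 lies on chromosome 9 from 71842688 to 72111871 and Tcf3 on chromosome 10 from 80409514 to 80433647, both on the minus strand. Id2 lies on chromosome 12 from 25093799 to 25097140 on the minus strand, and Id3 on chromosome 4 from 136143497 to 136145755 on the plus strand. Since E proteins bind E-boxes, the 250 bases before the RefSeq starts of these genes were searched for CANNTG, which reads the same on both strands. RefSeq windows of GRCm38.p6 were searched for 4 of the 5 genes, and Tcf4 was left out of the search. CANNTG was found once each in the windows of Id2, of Tcf3 and of 2 of the 3 starts of Tcf12, and not in that of Id3. The share of all 32851 windows that hold CANNTG was 66.2%, and CAGCTG, which is 1 form of CANNTG, was in 13% of them. These sequences are shown because each holds the E-box of its window, set in capitals. They run 5′ to 3′ on the strand of the gene and are limited to bases outside the exons that GENCODE annotates for it. The Id2 stretch is chr12:25096254-25096342, the Tcf12 stretch chr9:72111872-72112069 and the Tcf3 stretch chr10:80433648-80433885, all on the minus strand. That of Id2 lies inside the span that GENCODE gives for its gene, between annotated exons. Those of Tcf12 and Tcf3 lie before the spans of their genes.
Id2: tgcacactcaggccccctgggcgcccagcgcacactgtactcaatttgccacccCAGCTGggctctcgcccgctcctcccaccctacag
Tcf12: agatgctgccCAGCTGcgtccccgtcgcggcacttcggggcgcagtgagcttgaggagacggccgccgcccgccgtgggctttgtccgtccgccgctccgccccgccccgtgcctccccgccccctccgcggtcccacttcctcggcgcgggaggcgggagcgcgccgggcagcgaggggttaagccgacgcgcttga
Tcf3: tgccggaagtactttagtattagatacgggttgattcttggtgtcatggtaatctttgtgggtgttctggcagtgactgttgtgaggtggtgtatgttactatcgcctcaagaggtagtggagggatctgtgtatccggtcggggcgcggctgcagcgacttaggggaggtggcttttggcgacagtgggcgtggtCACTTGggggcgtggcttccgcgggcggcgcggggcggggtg
The E-box began at position -196 of the Id2 start, at -240 of the first Tcf12 start and at -54 of the Tcf3 start. The match is a description of these letters, and binding was not measured.

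Of the 5 genes, 4 were called in the joint test of the populations and 1, Tcf3, was not. Tcf4 and Tcf12 rose and Id2 fell from pre-cDCs to lo-lo cells, and Id3 rose from lo-lo to lo-hi cells. Tcf3 did not pass the test in any comparison. The 4 populations were tested jointly by edgeR (quasi-likelihood), with p-values adjusted over all 15293 genes after Benjamini and Hochberg and a cutoff of 0.01. The adjusted p was 9.2e-05 for Tcf4, 3.93e-06 for Tcf12, 1.83e-07 for Id2, 1.47e-07 for Id3 and 0.0518 for Tcf3. The same test called 19.9% of all genes. Levels are CPM scaled by TMM (edgeR's trimmed mean of M-values), and differences are log2 fold changes from the same fit with their SE.

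**Figure D1:**
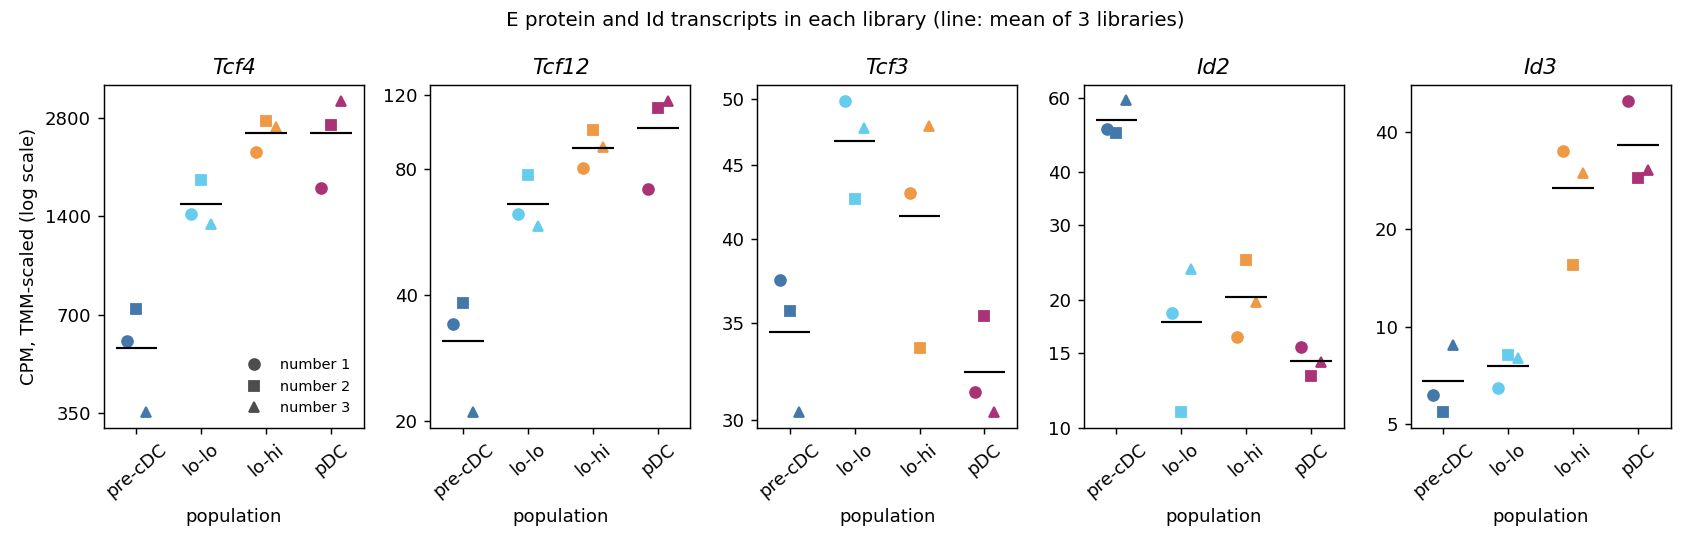
Level of each gene in each of the 12 libraries, in CPM scaled by TMM on a log axis whose range differs between the panels, with the mean of the 3 libraries of a population as a line and the library number as the shape of the point. Tcf4 and Tcf12 lie lowest in pre-cDCs, Id2 lies highest there, and the Id3 levels of lo-hi cells and pDCs lie above all those of pre-cDCs and lo-lo cells.

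Tcf4, on chromosome 18 from 69343356 to 69689079 on the plus strand of GRCm38, encodes E2-2. It was at 579, 727 and 352 CPM in pre-cDC libraries 1, 2 and 3. In lo-lo libraries it was at 1424, 1809 and 1329.7 CPM. In lo-hi libraries it was at 2201, 2734 and 2619.5 CPM, and in pDC libraries at 1711, 2669.5 and 3164 CPM. No pre-cDC library reached the lowest lo-lo library and no lo-lo library the lowest lo-hi library, whereas the pDC libraries spanned a range that took in the lo-hi libraries and overlapped with the lo-lo ones. The mean was 553 ± 189 CPM in pre-cDCs, 1521 ± 254 CPM in lo-lo cells, 2518 ± 281 CPM in lo-hi cells and 2515 ± 739 CPM in pDCs (SD, n = 3). The log2 fold change was 1.46 ± 0.26 in lo-lo cells against pre-cDCs (edgeR, adjusted p = 0.0039), a comparison in which 3.16% of all genes were called. It was 2.19 ± 0.27 in lo-hi cells against pre-cDCs (adjusted p = 4.42e-05), where 13.1% of all genes were called. In pDCs against pre-cDCs it was 2.19 ± 0.27 (adjusted p = 2.32e-05), where 21.7% were called.

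Between neighbours further along, Tcf4 did not pass the test. The log2 fold change was 0.73 ± 0.26 in lo-hi against lo-lo cells (edgeR, adjusted p = 0.114) although these libraries did not overlap and lo-hi was higher within all 3 numbers, by 0.63, 0.60 and 0.98. In pDCs against lo-lo cells it was 0.73 ± 0.26 (adjusted p = 0.0621). In pDCs against lo-hi cells it was -0.0021 ± 0.26 (adjusted p = 1), with differences of -0.36, -0.035 and 0.27 within numbers. The call in lo-lo cells against pre-cDCs was lost without pre-cDC library 1 (adjusted p = 0.0147) or lo-lo library 2 (adjusted p = 0.0153), with log2 fold changes of 1.497 and 1.32. Fitted on the 6 libraries of lo-lo and lo-hi cells alone, the rise of 0.71 between them was called (adjusted p = 3.77e-05).

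Tcf12, which encodes HEB, another E protein, rose at the same step as Tcf4. It was at 34.0, 38.2 and 20.9 CPM in pre-cDC libraries 1, 2 and 3, and at 62.3, 77.5 and 58.5 CPM in lo-lo libraries. In lo-hi libraries it was at 80.4, 99.3 and 90.4 CPM, and in pDC libraries at 71.7, 112 and 117 CPM. The libraries of pre-cDCs, lo-lo and lo-hi cells did not overlap, and pDC library 1 lay among the lo-lo libraries. Tcf12 rose by a log2 fold change of 1.10 ± 0.22 from pre-cDCs to lo-lo cells (edgeR, adjusted p = 0.00164). Against pre-cDCs it was higher by 1.54 ± 0.22 in lo-hi cells (adjusted p = 7.32e-06) and by 1.69 ± 0.21 in pDCs (adjusted p = 6.99e-07). The differences of 0.44 ± 0.20 in lo-hi against lo-lo cells (adjusted p = 0.218), 0.59 ± 0.20 in pDCs against lo-lo cells (adjusted p = 0.035) and 0.15 ± 0.20 in pDCs against lo-hi cells (adjusted p = 0.889) did not pass. With the library number as a replicate block, the difference of pDCs against lo-lo cells was called (edgeR, adjusted p = 0.00844). The call in lo-lo cells against pre-cDCs was lost without lo-lo library 2 (adjusted p = 0.0129), without pre-cDC library 3 (adjusted p = 0.0144) and without the 4 libraries numbered 3 (adjusted p = 0.0162). Without pDC library 1, the difference of pDCs against lo-lo cells was called for Tcf12 (0.76, adjusted p = 0.00468) and for Tcf4 (0.90, adjusted p = 0.00747). Without pre-cDC library 3 it was called for Tcf4 (0.69, adjusted p = 0.00782).

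Within the span of Tcf12 the annotation has 11 other genes, 4 of them in the table. One of these, the pseudogene Rpl15-ps2 on the opposite strand, had 31076 counts over the 12 libraries, against 2720 of Tcf12, and the other 3 had at most 14. Whether the authors counted by strand is not given in the sources used here. Without strand, reads of Tcf12 and of Rpl15-ps2 cannot be told apart where they overlap. Rpl15-ps2 had a log2 fold change of -0.50 ± 0.17 in pDCs against pre-cDCs, which did not pass the test (edgeR, adjusted p = 0.028). Its log2 CPM had a Pearson correlation of -0.855 with that of Tcf12 over the 12 libraries. The part of Rpl15-ps2 in the Tcf12 values was not tested.

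Tcf3, which encodes E2A, the E protein best known from early lymphocytes, differed less than the cutoff asks in all 6 comparisons of populations. It was at 37.5, 35.7 and 30.4 CPM in pre-cDC libraries 1, 2 and 3 and at 49.9, 42.7 and 47.8 CPM in lo-lo libraries. In lo-hi libraries it was at 43.1, 33.6 and 47.9 CPM and in pDC libraries at 31.3, 35.4 and 30.4 CPM. All 3 lo-lo libraries lay above all pre-cDC and all pDC libraries, and lo-hi libraries spread over both ranges. The largest difference was -0.53 ± 0.17 in pDCs against lo-lo cells (edgeR, adjusted p = 0.0226), a comparison with 13.8% of all genes called. In lo-lo cells against pre-cDCs it was 0.44 ± 0.17 (adjusted p = 0.151), and in pDCs against pre-cDCs -0.09 ± 0.17 (adjusted p = 0.733). Whether Tcf3 changed less than Tcf4 or Tcf12 was not tested.

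Id2, the inhibitor known from cDCs and innate lymphoid cells, was at 50.6, 49.6 and 59.1 CPM in pre-cDC libraries 1, 2 and 3. It was at 18.6, 10.9 and 23.7 CPM in lo-lo libraries, at 16.3, 24.8 and 19.8 CPM in lo-hi libraries and at 15.5, 13.3 and 14.3 CPM in pDC libraries. Pre-cDC libraries thus lay above all others, and those of lo-lo and lo-hi cells overlapped. The pDC libraries were the most even, with an SD of 1.12 CPM around a mean of 14.4 CPM, and lay below all lo-hi libraries. Id2 fell by a log2 fold change of 1.56 ± 0.21 from pre-cDCs to lo-lo cells (edgeR, adjusted p = 2.71e-05). Against pre-cDCs it was lower by 1.42 ± 0.22 in lo-hi cells (adjusted p = 2.52e-05) and by 1.88 ± 0.22 in pDCs (adjusted p = 1.81e-07). No further step passed, with 0.14 ± 0.23 in lo-hi against lo-lo cells (adjusted p = 0.829), -0.32 ± 0.23 in pDCs against lo-lo cells (adjusted p = 0.368) and -0.46 ± 0.24 in pDCs against lo-hi cells (adjusted p = 0.488). Of 4 monocyte markers, 2 were called lower in pDCs than in pre-cDCs, Ccr2 and Lyz2, and 0 higher, where 10.4% of all genes were called lower. The others were not called. In lo-lo cells against pre-cDCs, 1 of the 4 markers was called lower and 0 higher, where 237 of all 15293 genes were called lower. In lo-hi cells against pre-cDCs it was also 1 lower and 0 higher, with 967 of all genes lower. In pDCs against lo-lo cells, 1 of the 4 markers was called higher and 0 lower, where 1026 of all genes were called higher. Their list summed to 4400 to 4734 CPM in pre-cDCs, to 2743 to 3602 CPM in lo-lo cells, to 3517 to 4450 CPM in lo-hi cells and to 3067 to 4037 CPM in pDCs, with no marker at 0. The part of monocytes in the Id2 difference was not tested. In bulk libraries, fewer cells that express a gene and less of its RNA per cell cannot be told apart.

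Id3, the other inhibitor, took a course opposite to that of Id2 and at another step. It was at 6.15, 5.45 and 8.78 CPM in pre-cDC libraries 1, 2 and 3 and at 6.50, 8.19 and 8.04 CPM in lo-lo libraries, from 11 to 36 counts per library. In lo-hi libraries it was at 34.9, 15.5 and 29.8 CPM (158, 30 and 54 counts), and in pDC libraries at 49.9, 28.7 and 30.4 CPM (293, 91 and 70 counts). The libraries of pre-cDCs and lo-lo cells overlapped, those of lo-hi cells and pDCs overlapped, and the lowest lo-hi library lay above the highest lo-lo and pre-cDC libraries. Id3 rose by a log2 fold change of 1.85 ± 0.29 from lo-lo to lo-hi cells (edgeR, adjusted p = 0.000121). It was the only 1 of the 5 genes called in this comparison, in which 5.17% of all genes were called. Against pre-cDCs it was higher by 1.99 ± 0.30 in lo-hi cells (adjusted p = 3.04e-05) and by 2.42 ± 0.29 in pDCs (adjusted p = 5.9e-07), and against lo-lo cells by 2.28 ± 0.28 in pDCs (adjusted p = 1.19e-06). The difference of 0.14 ± 0.34 in lo-lo cells against pre-cDCs (adjusted p = 0.885) and that of 0.43 ± 0.25 in pDCs against lo-hi cells (adjusted p = 0.56) did not pass. Each of the 4 calls of Id3 was kept without any single library and without the libraries numbered 3.

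**Figure D2:**
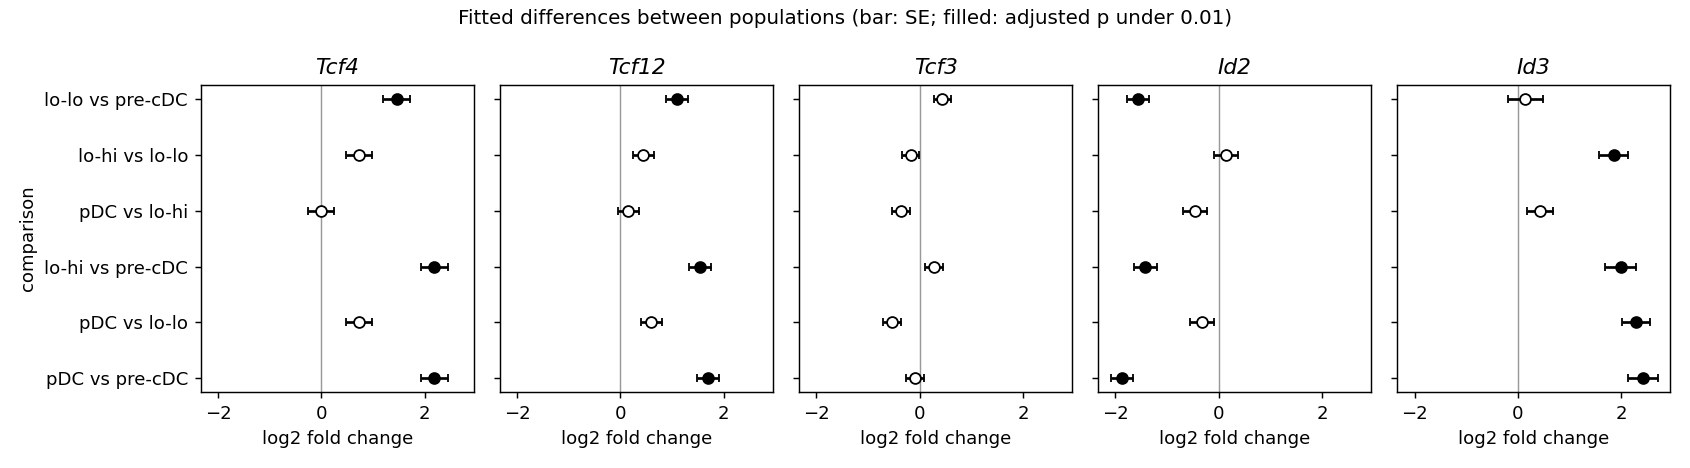
Log2 fold change of each gene in the 6 comparisons of populations, the first population named against the second, with the SE as a bar and filled points for an adjusted p under 0.01. Tcf4, Tcf12 and Id2 have filled points in the 3 comparisons with pre-cDCs, Id3 in the comparisons that cross from pre-cDCs or lo-lo cells to lo-hi cells or pDCs, and Tcf3 in none.

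Between lo-hi cells and pDCs, 0 of the 5 genes were called by edgeR and 0 by DESeq2, with 1 gene, Tcf3, at an unadjusted p under 0.05 by edgeR (-0.36 ± 0.17, adjusted p = 0.426). Few genes in all were called there, 0.961%. Without the 4 libraries numbered 3, the number of the 5 genes called was 2 in lo-lo cells against pre-cDCs instead of 3. In the other 5 comparisons of populations and in the joint test it was the same as with all libraries, and Tcf12 was the gene lost.

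The composition of the counts does not depend on scaling between libraries. Shares are of counts at 3′ ends without scaling by length, and each is compared only with itself across populations. Tcf4 made up 89.0, 90.8 and 87.3% of the counts of the 3 E protein genes in pre-cDC libraries 1, 2 and 3, with Wilson 95% intervals that together span 85.2 to 92.1% and cover counting error only. It made up 92.7, 93.8 and 92.6% in lo-lo libraries, 94.7, 95.4 and 94.98% in lo-hi libraries and 94.3, 94.8 and 95.6% in pDC libraries. The mean share was 89.0 ± 1.76% in pre-cDCs and 93.0 ± 0.651% in lo-lo cells, then 95.01 ± 0.336% in lo-hi cells and 94.9 ± 0.629% in pDCs (SD, n = 3). The share of Tcf3 went from 5.92 ± 1.55% in pre-cDCs over 2.93 ± 0.623% and 1.59 ± 0.364% to 1.30 ± 0.407% in pDCs.

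Among the counts of Id2 and Id3 together, the share of Id3 was 10.8, 9.91 and 12.9% in pre-cDC libraries 1, 2 and 3. It was 25.9, 42.9 and 25.4% in lo-lo libraries, 68.1, 38.5 and 60% in lo-hi libraries and 76.3, 68.4 and 68.0% in pDC libraries. All pDC libraries lay above 50% and all lo-lo and pre-cDC libraries below it, and lo-hi library 2, with 78 Id counts, lay among the lo-lo libraries. The summed level of Id2 and Id3 was 59.9 ± 6.97 CPM in pre-cDCs, 25.3 ± 6.30 CPM in lo-lo cells, 47.1 ± 5.87 CPM in lo-hi cells and 50.7 ± 12.8 CPM in pDCs (SD, n = 3). It was thus lowest in lo-lo cells, where Id2 was already low and Id3 still low, and no test was made on this sum.

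The number of E protein counts per Id count was 11.5, 14.6 and 5.93 in pre-cDC libraries 1, 2 and 3. It was 61.2, 100.9 and 45.3 in lo-lo libraries, 45.4, 71.0 and 55.6 in lo-hi libraries and 27.7, 67.0 and 74.1 in pDC libraries. Pre-cDC libraries lay below all others, and the other 3 populations overlapped. The lowest pDC value, 27.7, came from pDC library 1, the deepest library, which had the lowest Tcf4 and the highest Id3 of the 3 pDC libraries. Counts of Tcf4 per count of Id2 went from 10.7 ± 4.41 in pre-cDCs to 99.5 ± 58.3 in lo-lo cells, 126 ± 13.5 in lo-hi cells and 177 ± 59.0 in pDCs. Counts of Tcf4 per count of Id3 were 89.2 ± 46.9, 202 ± 31.5, 109 ± 59.4 and 77.1 ± 37.5 in the same order (SD, n = 3).

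**Figure D3:**
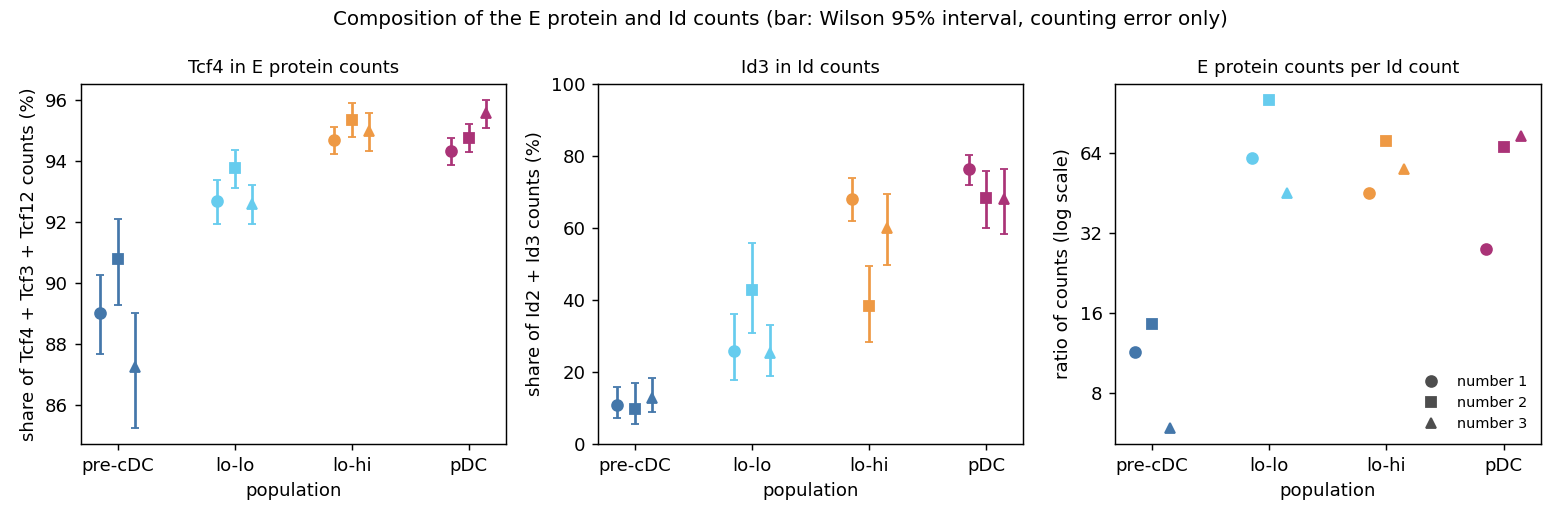
Share of Tcf4 in the counts of the 3 E protein genes (axis cut, not from 0), share of Id3 in the counts of Id2 and Id3, and E protein counts per Id count on a log axis, for each library of the 4 populations, with Wilson 95% intervals on the shares and the library number as the shape. The ratio lies between 5.93 and 14.6 in pre-cDCs and between 27.7 and 100.9 in the other libraries, while the Id3 share is 25.4% or more in all libraries but those of pre-cDCs.

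Over the 12 libraries, Tcf4 and Tcf12 had a Pearson correlation of log2 CPM of 0.994, and after subtraction of the population means it was still 0.987. The libraries share populations and scaling, so these correlations are descriptions. Tcf4 and Id2 had r = -0.857 over the libraries and -0.385 within populations. Tcf4 and Id3 had r = 0.673 over the libraries but -0.672 within populations, and Tcf12 and Id3 had 0.652 and -0.714. In pDCs and in lo-hi cells, library 1 had the lowest Tcf4 and the highest Id3 of its population. Tcf3 had r = 0.166 with Tcf4 and 0.133 with Tcf12.

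**Figure D4:**
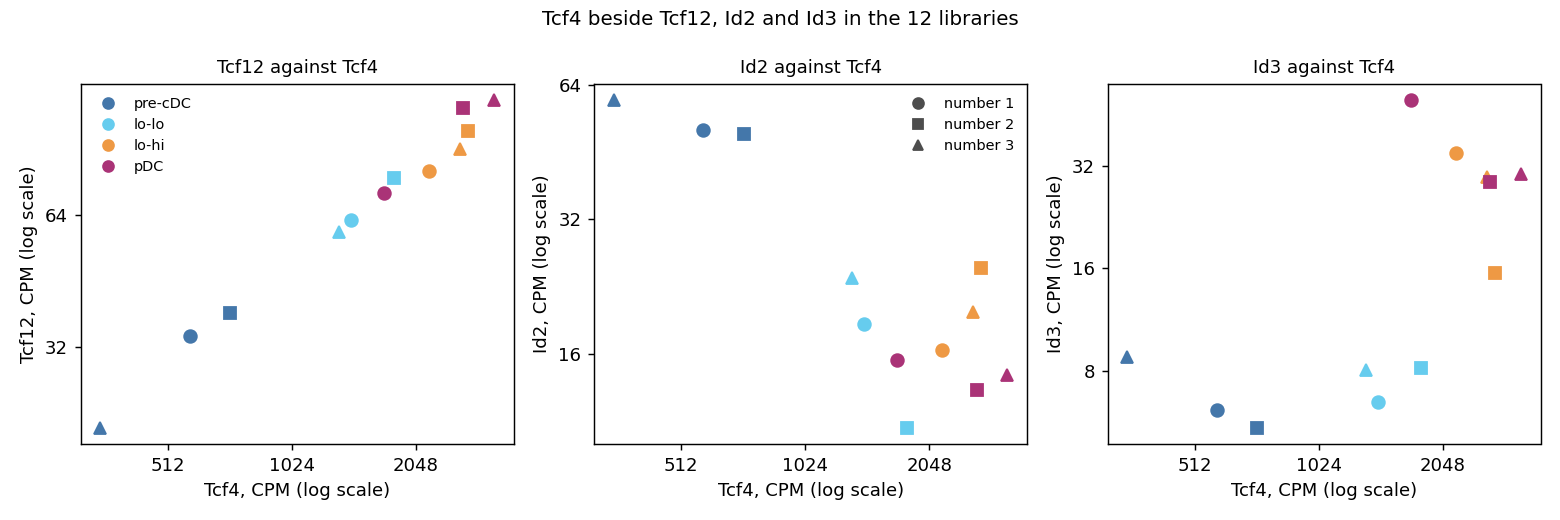
Levels of Tcf12, Id2 and Id3 against Tcf4 in CPM on log axes, 1 point per library, coloured by population and shaped by library number. Tcf12 follows Tcf4 along the whole range (r = 0.994), whereas Id3 is higher in lo-hi cells and pDCs than in the other populations, and within populations its r with Tcf4 is -0.672, with exceptions such as lo-lo library 2, which has the highest Tcf4 and the highest Id3 of the lo-lo libraries.

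Genes whose levels ran most like each of the 5 were sought among the 6403 genes whose mean count reached 50, by the same correlation over the 12 libraries. For Tcf4 these were Tcf12 (0.994), Pmepa1 (0.988), Snx18 (0.987), Runx2 (0.983), which encodes a Runt transcription factor, and Bcr (0.983). The lowest were Csf2ra, which encodes a chain of the GM-CSF receptor (-0.982), Gm10080 (-0.979) and Tspo (-0.978). For Tcf12 they were Tcf4 (0.994), Bcl11a (0.992), Carmil1 (0.987), Rai1 (0.985) and Pdzd8 (0.985), and the lowest were Gm5526 (-0.981), Gm10080 (-0.979) and a gene without a symbol, ENSMUSG00000029142 (-0.977). Bcl11a, a zinc finger factor of lymphoid and pDC development, went from 242 CPM in pre-cDCs to 522 CPM in pDCs.

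The correlations of Tcf3 were lower. They were highest for Slc25a51 (0.93), Helb (0.844), Itgax (0.826), which encodes CD11c, Lgals9 (0.823) and Spast (0.822). They were lowest for Lipa (-0.933), which encodes lysosomal acid lipase, Cyp27a1 (-0.859) and Gm9294 (-0.837). Itgax, like Tcf3, was highest in lo-lo cells, at a mean of 104 CPM against 58.3, 62.1 and 29.6 CPM in pre-cDCs, lo-hi cells and pDCs.

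For Id2 the highest were Map3k11 (0.953), Ifitm2 (0.933), Nfe2 (0.931), which encodes a factor of the erythroid and megakaryocyte lineages, Ccl6 (0.927) and Glipr2 (0.921). The lowest were Cflar (-0.963), which encodes the caspase inhibitor c-FLIP, Hsp90b1 (-0.946), which encodes a chaperone of the endoplasmic reticulum, and Ankib1 (-0.936). For Id3 they were Csk (0.967), which encodes a kinase that holds Src kinases inactive, Serp1 (0.966), Khk (0.964), Tubb2b (0.96) and Nr2c2ap (0.959), and the lowest were Pa2g4 (-0.97), Lilra6 (-0.969) and Hist1h4k (-0.966). Khk, which encodes ketohexokinase, was at means of 125 and 112 CPM in pre-cDCs and lo-lo cells and of 279 and 364 CPM in lo-hi cells and pDCs, the same step as that of Id3.

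The wider network was described by 6 lists of genes around the E proteins, chosen with earlier results of these data known. Some genes of these lists are not analysed here. In pDCs against pre-cDCs, 11.4% of all genes were called higher and 10.4% lower, and the median log2 fold change of all genes was 0.05. In lo-hi against lo-lo cells, 2.33% were called higher and 2.83% lower, with a median of 0.01.

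Of 12 other Id genes and bHLH partners of E proteins, 4 had enough counts to be tested, and 2 of them fell in pDCs against pre-cDCs. Lyl1, which encodes a bHLH partner of E proteins in blood progenitors, was at 53.0, 46.6 and 58.8 CPM in pre-cDC libraries and at 16.2, 23.4 and 15.2 CPM in pDC libraries. Its log2 fold change was -1.54 ± 0.19 (edgeR, adjusted p = 3.42e-07). Id1, a further inhibitor, had 17, 12 and 8 counts in pre-cDC libraries and 4, 2 and 0 in pDC libraries (adjusted p = 0.000203). Id4 had 0 counts in 11 libraries and 1 count in lo-hi library 1. In lo-hi against lo-lo cells 0 of these 4 genes were called by edgeR, with 1 at an unadjusted p under 0.05.

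The 3 corepressors of the ETO family, which bind E proteins, were called in no comparison by edgeR. In pDCs against pre-cDCs 1 of them had an unadjusted p under 0.05, and DESeq2 called 1, as did the fit without pre-cDC library 3 and that without the libraries numbered 3. Cbfa2t3 had a log2 fold change of -0.56 ± 0.17 there (adjusted p = 0.0149 by edgeR). Cbfa2t2 had -0.04 ± 0.31 (adjusted p = 0.935), and Runx1t1, with few counts, had 2.45 ± 1.28 (adjusted p = 0.154).

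Among 10 tested regulators of Id2 or of the E2-2 programme, 3 rose and 2 fell in pDCs against pre-cDCs, with a median of -0.13. Batf3, a factor of cDC1 development, had a log2 fold change of -4.14 ± 0.37 (edgeR, adjusted p = 2.13e-09), with means of 18.2, 2.24, 0.860 and 1.13 CPM in pre-cDCs, lo-lo cells, lo-hi cells and pDCs. The means of lo-hi cells and pDCs lay within the 0.5 to 1.67 CPM of the floor, so the size of this change is uncertain. Spi1, which encodes PU.1, changed by -2.55 ± 0.20 (adjusted p = 2.61e-10). Spib, an ETS factor of pDCs, rose by 2.40 ± 0.16 (adjusted p = 2.31e-11) and Bcl11a by 1.11 ± 0.18 (adjusted p = 2.04e-05). From lo-lo to lo-hi cells, 1 rose, Spib (0.66 ± 0.15, adjusted p = 0.00416), and 1 fell, Spi1 (-1.18 ± 0.20, adjusted p = 0.000274). The call of Spib at this step was lost without any 1 of 6 libraries, namely lo-lo 1, 2 or 3, lo-hi 1 or 2 and pDC 2. Spib and Bcl11a are also in the next list.

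Of 12 tested pDC genes known to depend on E2-2, 11 rose and 0 fell in pDCs against pre-cDCs, with a median of 2.52. In lo-lo cells against pre-cDCs 9 of the 12 rose, in lo-hi against lo-lo cells 8 and in pDCs against lo-hi cells 1. Of all 15293 genes, 246, 357 and 18 were called higher there, in the same order. Without the libraries numbered 3 the counts of the list, from pDCs against pre-cDCs on, were 11, 6, 9 and 1. Of all 15447 genes tested in that fit, 1153, 107, 285 and 8 were called higher, in the same order. Ccr9, a chemokine receptor used in the sort, rose most, by 3.82 ± 0.20 (edgeR, adjusted p = 2.15e-12). Pacsin1, a membrane-shaping protein, rose by 3.54 ± 0.20 (adjusted p = 4e-12) and Klra17, which encodes Ly49Q, by 3.37 ± 0.22 (adjusted p = 2.02e-11). Tlr7, a receptor for single-stranded RNA, rose by 3.28 ± 0.20 (adjusted p = 8.44e-12), over means of 9.71, 20.2, 56.7 and 93.5 CPM from pre-cDCs to pDCs. Siglech in this list was used in the sort as well.

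Of 13 tested lymphoid targets of E proteins, 4 rose and 0 fell in pDCs against pre-cDCs, with a median of 0.08. Il7r, which encodes the receptor chain for interleukin 7, rose by 2.70 ± 0.20 (edgeR, adjusted p = 7.54e-11). Dntt, which encodes the DNA polymerase TdT, rose by 1.98 ± 0.20 (adjusted p = 1.19e-08), Notch1 by 1.93 ± 0.35 (adjusted p = 9.89e-05) and Foxo1 by 1.08 ± 0.21 (adjusted p = 0.000253). Dntt was at means of 37.8 and 28.9 CPM in pre-cDCs and lo-lo cells and of 93.8 and 149 CPM in lo-hi cells and pDCs. In lo-hi against lo-lo cells 3 of the 13 rose, 2 without the libraries numbered 3 and 1 without lo-lo library 3. Without the libraries numbered 3, 3 rose in pDCs against pre-cDCs and the median was -0.43. Ighm, which encodes the immunoglobulin mu heavy chain and marks B cells, was at means of 395, 523, 596 and 753 CPM from pre-cDCs to pDCs and rose by 0.93 ± 0.16 in pDCs against pre-cDCs (edgeR, adjusted p = 6.72e-05). Genes of B cell precursors in the list did not pass, with -0.16 ± 0.52 for Pax5 (adjusted p = 0.851), -0.34 ± 0.35 for Ebf1 (adjusted p = 0.516), -0.34 ± 0.46 for Vpreb1 (adjusted p = 0.618) and -0.57 ± 0.44 for Igll1 (adjusted p = 0.355). Further B lineage genes of the list did not pass by edgeR either, in both directions. Cd79b had 0.59 ± 0.18 (adjusted p = 0.0135) and Cd79a had 1.01 ± 0.69 (adjusted p = 0.287). Vpreb3 had 0.08 ± 0.84 (adjusted p = 0.959) and Vpreb2 had -1.81 ± 1.11 (adjusted p = 0.234). Ighm and these genes were named after their values were seen, and the part of B cells in these differences was not tested.

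Of 12 genes of cDCs, where Id2 is high, 6 fell and 4 rose in pDCs against pre-cDCs, with a median of -1.09. Besides Batf3, Csf1r, which encodes the M-CSF receptor, fell by 3.63 ± 0.22 on the log2 scale (edgeR, adjusted p = 8.38e-12), and Zbtb46, a factor of the cDC lineage, by 2.92 ± 0.31 (adjusted p = 3.57e-08). H2-Aa, a chain of MHC class II, rose by 2.34 ± 0.31 (adjusted p = 0.000128). The 4 that rose were H2-Aa, H2-Ab1, Clec10a and Sirpa, of which the last 3 were named after their values were seen. They encode 2 chains of MHC class II, a lectin and an inhibitory receptor. In lo-hi against lo-lo cells 4 rose and 2 fell, whereas without lo-lo library 3 it was 1 and 1, and without lo-hi library 2 it was 2 and 1. Without the libraries numbered 3, 3 rose and 1 fell.

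**Figure D5:**
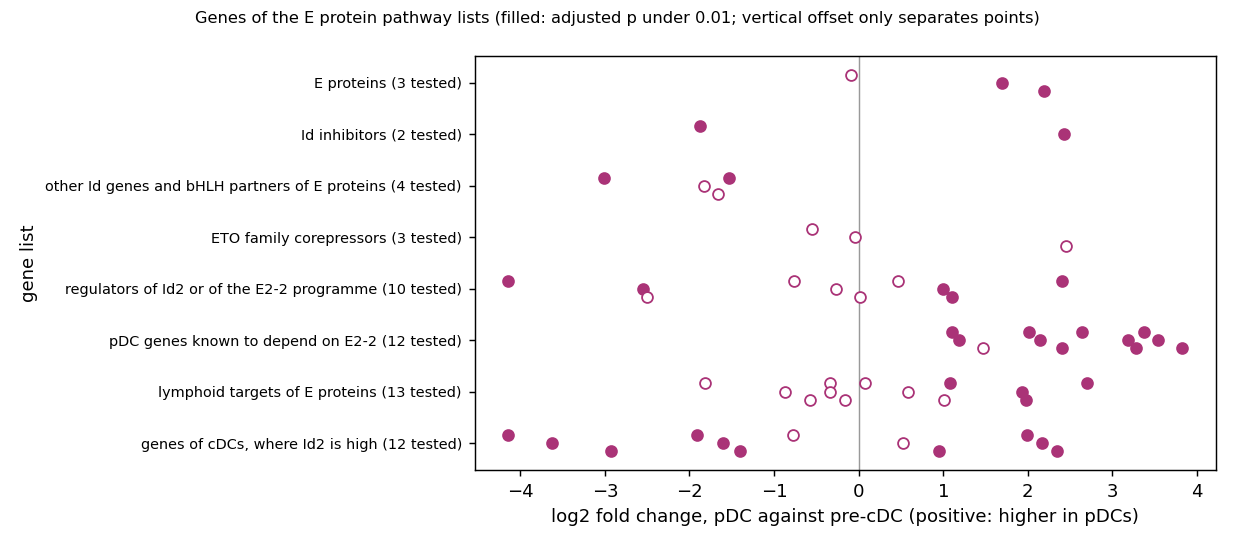
Log2 fold change of each tested gene of the 5 genes and of the 6 lists around them in pDCs against pre-cDCs, with filled points for an adjusted p under 0.01 and a vertical offset that only separates points. The pDC genes known to depend on E2-2 lie to the right of 0, with 11 of 12 filled, while the genes of cDCs lie on both sides, with 6 filled on the left and 4 on the right.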

How the data were processed

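The 12 libraries were made by SCRB-seq from sorted cells. The authors processed the reads with zUMIs, mapping them with STAR 2.5.2b (submitters' processing notes) to the mouse genome (GRCm38, Ensembl genes). The deposited values are raw counts, 1 column a well. Whether these are reads or molecules is not given in the sources used here. Symbols were found for 21410 of 21754 identifiers. A mean count of 1 or more was asked for, which left 15293 genes to test and 6461 out. One robust quasi-likelihood fit of all 12 libraries without covariates (edgeR 4.0.16, R 4.3.3, TMM) gave the 6 comparisons and the joint test, adjusted by Benjamini-Hochberg at 0.01, and was tested on simulated data. There, in pDCs against pre-cDCs, it called 48 of 100 genes with a true log2 fold change of 1 in either direction. It called 97 of 100 with a change of 2 and 0 of 15093 without a change. A difference that did not pass is thus not shown to be absent. CPM were computed from the deposited counts with TMM. Correlations used log2 CPM with a prior count of 2. Sequences came from RefSeq (GRCm38.p6).

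The 5 genes and the lists were chosen with earlier results of these data known. Named were the 5 genes, for each the 5 highest and 3 lowest correlations, and from each list up to 4 called genes with the largest change in pDCs against pre-cDCs. Corepressors and marker genes were named beside them after their values were seen. Alternatives were DESeq2 1.42.0, other scalings, filters and cutoff, the replicate block, fits of the 6 libraries compared, thinning, the deposited labels and leaving out libraries; leaving out the 4 libraries numbered 3 was added after the data were seen. Some items are not reported here.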

Additional observations from a re-analysis of the deposited data

How the results depend on the processing

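The differences called between populations were kept in all 23 settings run apart from the deposited labels, the reported one included, for Id2 (3 comparisons), Id3 (4), Tcf4 and Tcf12 in lo-hi cells and in pDCs against pre-cDCs. Those of Tcf4 and Tcf12 in lo-lo cells against pre-cDCs were kept in 20 of these 23. Values are log2 fold changes, and causes were not tested except where fewer libraries or genes entered. With the deposited labels, 0 of the 5 genes and 0 of all genes were called in each comparison, and the joint adjusted p was 0.9999 for Tcf4, Tcf12, Id2 and Id3. In lo-lo cells against pre-cDCs the labels gave 0.0152 (Tcf4), 0.0884 (Tcf12), -0.2521 (Tcf3) and -0.2005 (Id2). In lo-hi cells against pre-cDCs they gave 0.4528 (Tcf4), 0.3913 (Tcf12), -0.3917 (Tcf3), 0.191 (Id2) and 0.1446 (Id3), and in lo-hi against lo-lo cells -0.3114 (Id3). In pDCs they gave 0.7584 (Tcf4), 0.5824 (Tcf12), -0.5515 (Id2) and 0.4693 (Id3) against pre-cDCs, 0.2047 (Tcf3) and 0.0132 (Id3) against lo-lo cells, and 0.3056 (Tcf4) and 0.3444 (Tcf3) against lo-hi cells. With no filter, Tcf4 was called in lo-hi against lo-lo cells (0.7105) and in pDCs against lo-lo cells (0.7164), as was Tcf12 in the latter (0.5837), so that 2 and 3 of the 5 genes were called there. Of all 21754 genes, 1048 and 2404 were called there. Tcf4 in pDCs against lo-hi cells was then 0.0058, and 733 genes were called in lo-lo cells against pre-cDCs and 344 in pDCs against lo-hi cells, instead of 483 and 147. At a cutoff of 0.05, Tcf12 (0.5932) and Tcf3 (-0.5326) also passed in pDCs against lo-lo cells, 3 of the 5 genes. That cutoff called 907 genes in lo-lo and 3063 in lo-hi cells against pre-cDCs, 1321 in lo-hi against lo-lo cells, and 327 and 3332 in pDCs against lo-hi and lo-lo cells. The 6 libraries of lo-lo and lo-hi cells alone gave 0.7143 for Tcf4, 2 of the 5 genes called and 1191 genes in all, instead of 790. Thinned to the smallest total, Tcf4 in lo-lo cells against pre-cDCs was 1.4659, against 1.4611 with all counts, and not called (edgeR, adjusted p = 0.0197). Scaling by library totals moved the median of all genes in that comparison to 0.12, with 309 higher and 193 lower instead of 246 and 237. Without the libraries numbered 3, Tcf12 there was 0.9584 and 247 genes were called. Same-numbered libraries deviated together with r over 0.1 in 16 of 18 pairs (-0.428 to 0.653, mean 0.276, against a mean of -0.139 for different numbers), and 10 of 12 libraries correlated best with one of their own number. This is a hint that the numbers pair the samples, as is the Y-linked signal in all libraries numbered 3, but no source used here ties a number to a mouse and not every pair was over 0.1, so the fit without the block was kept. With a replicate block, Tcf12 in pDCs against lo-lo cells was called (0.5857), 2 of the 5 genes and 2594 of all 15293. All genes called were 743 in lo-lo cells against pre-cDCs and 346 in pDCs against lo-hi cells. Leaving out 1 library at a time gave 1.2123 to 1.6854 for Tcf4 and 0.8697 to 1.2308 for Tcf12 in lo-lo cells against pre-cDCs, with 1 to 3 of the 5 genes and 280 to 662 genes in all called. It gave -0.1 to 0.4045 for Id2 in lo-hi against lo-lo cells (below 0 without lo-lo 2 or lo-hi 2), with 381 to 945 genes called in all. In pDCs it gave 0.5264 to 0.9021 for Tcf4 and 0.4693 to 0.7557 for Tcf12 against lo-lo cells, with 1 to 3 of the 5 genes and 1568 to 2342 genes in all called. It gave -0.2011 to 0.2101 for Tcf4 in pDCs against lo-hi cells, with 65 to 213 genes called in all.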
